A study of Mus musculus with 6 samples.

Results

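Among the 37620 genes in the deposited count table, 9 known from cardiac muscle to respond to stretch and mechanical load were followed: Ankrd1, Ankrd2, Ankrd23, Xirp1, Xirp2, Csrp3, Rcan1, Ctgf and Cyr61. They were taken by name, and all 9 were found and had enough reads to be tested. Ctgf and Cyr61 stand in the gene table under the newer symbols Ccn2 and Ccn1. Messenger RNA came from the heart apex of mice (strain C57/BL6J, genotype wild type) whose myocardium had gone through 30 min of ischaemia, a stop of blood flow, and 120 min of reperfusion. In the dexmedetomidine group (DIR, 3 libraries) mice received dexmedetomidine, a sedative agonist of alpha-2 adrenergic receptors, at 10 µg/kg, with the vehicle of yohimbine 30 min earlier and surgery 20 min later. The vehicle group (IR, 3 libraries) received the vehicles of yohimbine and of dexmedetomidine before the same surgery, with no times given, so whether timing differed between the groups is not known. All infusions took 10 min through the tail vein. Hearts without ischaemia were not analysed here, so the values below describe reperfused hearts with and without the drug and not a response to ischaemia. Nothing in the labels says whether each sample came from 1 animal or from a pool, nor the age or sex of the mice.

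Heart muscle cells sense load at the Z-disc, where thin filaments and titin are anchored, and at the intercalated disc, where cells pull on each other. Proteins at these sites pass the signal on to the nucleus, where factors such as YAP with TEAD, the serum response factor and NFAT act on stress genes. Ankrd1, Ankrd2 and Ankrd23 encode the muscle ankyrin repeat proteins, which bind titin at its elastic part and can also enter the nucleus. Csrp3 encodes the muscle LIM protein of the Z-disc, and Xirp1 and Xirp2 encode the Xin proteins, which bind actin at the intercalated disc. Rcan1 encodes an inhibitor of the phosphatase calcineurin and is itself switched on by calcineurin and NFAT. Ctgf and Cyr61 encode secreted matricellular proteins that are textbook targets of YAP and TEAD, and fibroblasts and endothelial cells make them as well as heart muscle cells.

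The promoters of Ankrd1, Cyr61, Rcan1 and Xirp2 are shown because they hold a TEAD or AP-1 motif, and because their genes showed the different patterns described below. Ankrd23, with a TEAD motif in its inner window, is not shown. Whether load or stress acts on these genes through the motifs was not tested. The sequences are the 250 bases before the start of transcription, from RefSeq on build GRCm38.p6, written from 5′ to 3′ on the strand of the gene. Capitals mark the TEAD motif GGAATG or its reverse complement CATTCC, and the AP-1 motif TGANTCA. The Ankrd1 promoter lies at chr19:36119845-36120094 on the minus strand, the Cyr61 promoter at chr3:145649986-145650235 on the minus strand, the inner of 2 listed Rcan1 promoters at chr16:92400079-92400328 on the minus strand and the Xirp2 promoter at chr2:67445752-67446001 on the plus strand.
Ankrd1: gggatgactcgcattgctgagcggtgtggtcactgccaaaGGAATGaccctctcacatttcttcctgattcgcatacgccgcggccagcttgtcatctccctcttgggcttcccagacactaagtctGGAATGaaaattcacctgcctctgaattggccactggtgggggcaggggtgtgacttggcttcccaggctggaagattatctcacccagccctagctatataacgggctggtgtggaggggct
Cyr61: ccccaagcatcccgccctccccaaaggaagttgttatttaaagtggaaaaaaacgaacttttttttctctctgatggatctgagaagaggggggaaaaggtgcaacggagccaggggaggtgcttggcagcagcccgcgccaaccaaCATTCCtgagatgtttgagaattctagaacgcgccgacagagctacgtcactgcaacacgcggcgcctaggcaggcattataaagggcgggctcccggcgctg
Rcan1: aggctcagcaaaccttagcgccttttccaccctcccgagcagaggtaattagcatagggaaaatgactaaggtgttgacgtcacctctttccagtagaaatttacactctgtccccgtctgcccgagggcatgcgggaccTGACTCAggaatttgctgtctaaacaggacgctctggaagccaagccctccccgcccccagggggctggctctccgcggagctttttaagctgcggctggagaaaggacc
Xirp2: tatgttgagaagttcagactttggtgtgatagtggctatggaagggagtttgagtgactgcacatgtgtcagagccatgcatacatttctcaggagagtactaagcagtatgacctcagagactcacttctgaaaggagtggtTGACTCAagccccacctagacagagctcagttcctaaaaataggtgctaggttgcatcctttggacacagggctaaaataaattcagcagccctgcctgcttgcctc

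Promoters were listed for 7 of the 9 genes, with 10 windows in all. The TEAD motif stood in 3 of the 10 windows, against 12.6% of all 32851 windows. It stood 2 times in Ankrd1 and 1 time each in Cyr61 and in the inner window of Ankrd23. The AP-1 motif stood in 2 of the 10 windows, those of Xirp2 and the inner one of Rcan1, against 6.75% of all windows. A MEF2 box, searched on both strands, lay nearer the start of Xirp2 than its AP-1 motif and did not overlap it, and 2.92% of all windows held one. No CArG box, the site of the serum response factor, was found in the 10 windows, against 1.47% of all windows. These are matches of letters in a short window and do not show that a factor was bound. Counts per gene do not separate the 2 Rcan1 starts, of which the inner one gives the form known to respond to calcineurin.

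Between the drug and vehicle groups, 8 of the 9 genes had lower fitted levels after dexmedetomidine, and Xirp2 was higher, at 2.55-fold. None of these differences passed the test, edgeR's quasi-likelihood test at a Benjamini-Hochberg adjusted p of 0.05 over 14738 genes, in which 0% of all genes passed. Most of the lower values shrank without vehicle replicate 2, in which 6 of the 9 genes had their highest level of the 6 libraries. Without it 8 of the 9 still had a log2 fold change below 0, against 49.5% of all genes. Cyr61 and Xirp1 were 2.32-fold and 2.30-fold lower with all libraries, and their log2 fold changes without that replicate were -0.22 and -0.36. Xirp2 had its lowest level in vehicle replicate 2, and its log2 fold change was 1.35 with that replicate and 1.28 without it, while the sparse Ankrd2 was at -0.53 and -0.48. Leaving out vehicle replicate 3, in which all 9 genes lay below their own mean, moved their median log2 fold change from -0.45 to -0.68. In that fit Xirp1, Ctgf and Cyr61 passed, as did 1251 of 15048 genes in all.

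Each library held 42.7 to 56.6 M counts in genes, and the 9 genes had between 8355 and 175073 counts each per library, apart from Ankrd2 with 31 to 129. Vehicle replicate 2 stood apart on the first principal component of all genes (47.3% of variance), at 69.8, with dexmedetomidine libraries at -17.6, -28.1 and -46.6 and vehicle replicates 1 and 3 at 26.3 and -3.67. Levels are given as CPM, counts per 1000000 after TMM scaling of library size, a scaling that evens out differences in RNA composition. Heart muscle markers summed to 54224 to 57388 CPM in dexmedetomidine libraries and 59233 to 70814 CPM in vehicle libraries, led by Myh6. In bulk tissue, fewer cells of a type and less RNA per cell cannot be told apart. Atrial markers summed to 19.7, 7.52 and 61.8 CPM in dexmedetomidine replicates 1, 2 and 3, and to 15.3 to 31.7 CPM after vehicle. Among them Bmp10 was at 0 in every library, and the skeletal muscle myosin gene Myh4 was also at 0. Because nothing states that replicates are separate animals, the p-values measure spread between libraries that may be technical.

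The counts among the 9 genes are read against those of all genes. A log2 fold change below 0 was measured for 8 of the 9, against 49.7% of all genes, for 8 without vehicle replicate 2, against 49.5%, and for 7 once each library's trend with GC content and gene length was removed (the GC and length correction), against 49.8%. Without adjustment 21.5% of all genes had an edgeR p under 0.05, 3172 genes, of which 9.03% of all were lower and 12.5% higher, and among the 9 it was Xirp1, lower, and Xirp2, higher. Without vehicle replicate 2 it was Xirp2 alone, where 5.14% of all genes were lower and 9.61% higher, and with the correction it was again Xirp2 alone, where 6.4% were lower and 5.74% higher. Groups did not overlap for Csrp3, lower, and Xirp2, higher, against 27.6% of all genes in either direction, and for 1 gene in each direction without vehicle replicate 2, against 32.9%. DESeq2 called 1272 genes, or 9.56% (6.61% higher and 2.95% lower), with Xirp2 the 1 call among the 9. Limma-voom with quality weights called 2107 genes, or 14.3% (8.98% higher and 5.31% lower), and 0 of the 9.

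**Figure D1:**
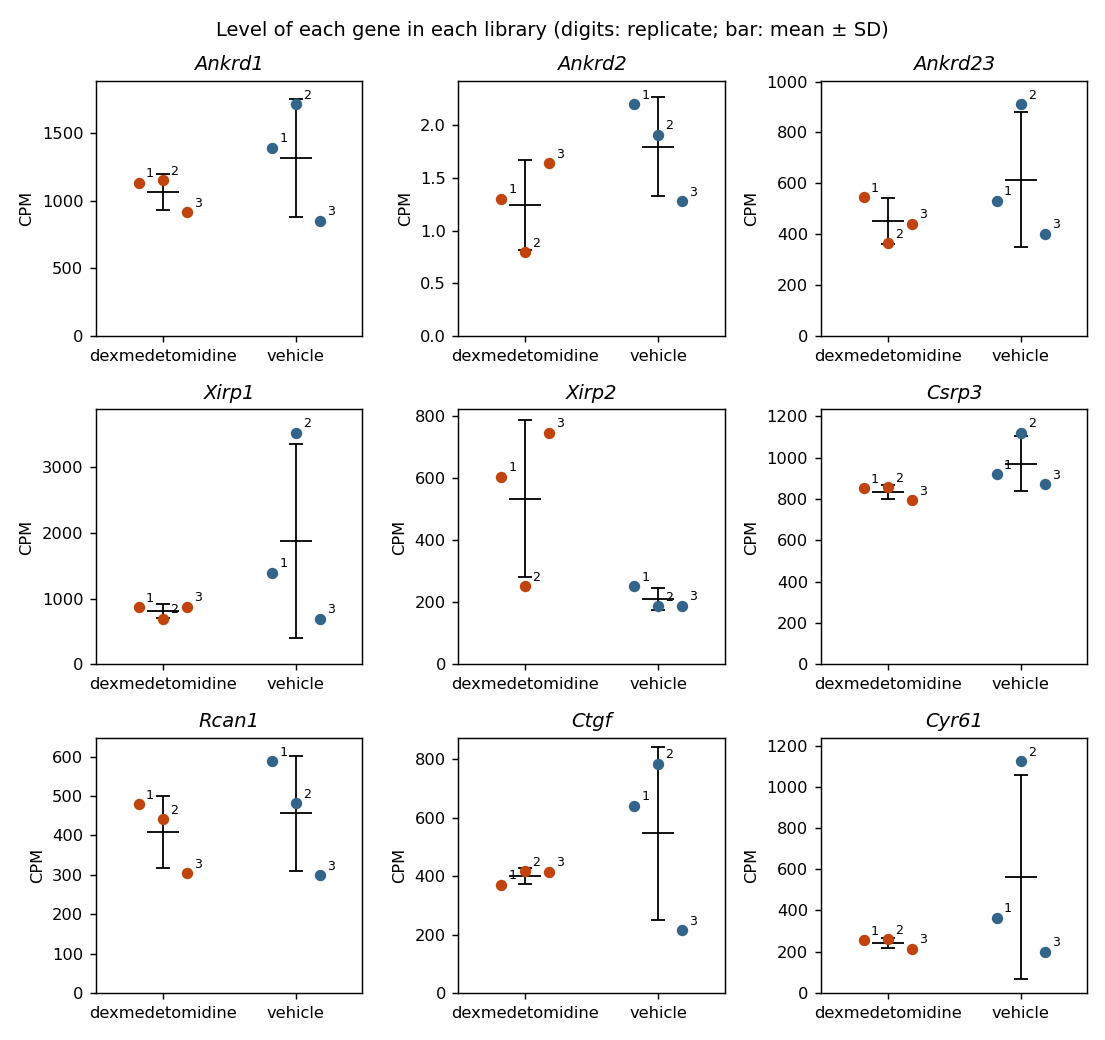
Level of each of the 9 genes in CPM (linear axis from 0) in each library, dexmedetomidine at the left and vehicle at the right of each panel, with digits for the replicate and bars for mean ± SD (n = 3). Vehicle replicate 2 stands high for Xirp1 and Cyr61, at 3526 and 1124 CPM, and Xirp2 is high in dexmedetomidine replicates 1 and 3, at 603 and 745 CPM.

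The muscle ankyrin repeat genes came as 2 abundant transcripts and 1 sparse one, Ankrd2. Ankrd1 measured 1131, 1148 and 912 CPM in dexmedetomidine replicates 1, 2 and 3, against 1389, 1712 and 851 CPM in vehicle replicates 1, 2 and 3. Both the highest and the lowest value thus came from vehicle libraries, and the dexmedetomidine libraries lay between them. Means were 1064 ± 132 CPM after dexmedetomidine and 1317 ± 435 CPM after vehicle (SD, n = 3 each). The log2 fold change was -0.31 (SE 0.23, 95% interval -0.84 to 0.22, edgeR adjusted p = 0.485), and -0.08 without vehicle replicate 2.

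Ankrd23, whose protein shares the titin site of Ankrd1, measured 546, 364 and 442 CPM in dexmedetomidine libraries, against 532, 911 and 402 CPM in vehicle libraries. Vehicle replicate 2 stood alone and the other 5 libraries overlapped. Its log2 fold change was -0.45 (SE 0.29, edgeR adjusted p = 0.409), and -0.05 without that replicate. Ankrd2, better known from slow skeletal muscle, measured 1.30, 0.795 and 1.64 CPM in dexmedetomidine libraries, against 2.20, 1.91 and 1.28 CPM in vehicle libraries. The groups overlapped, and the log2 fold change of -0.53 (SE 0.38, edgeR adjusted p = 0.460) had a 95% interval of -1.38 to 0.33. Skeletal muscle markers, led by Ckm, which heart muscle also expresses, summed to 991 to 1212 CPM after dexmedetomidine and 1194 to 1744 CPM after vehicle, and their part in the Ankrd2 value was not tested.

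Csrp3, the LIM protein gene of the Z-disc, varied least of the 9. It measured 851, 857 and 793 CPM in dexmedetomidine libraries, against 920, 1121 and 870 CPM in vehicle libraries. All 3 dexmedetomidine values lay below all 3 vehicle values, as for 12% of all genes in this direction, with the nearest pair at 857 and 870 CPM. The log2 fold change was -0.22 (SE 0.13, edgeR adjusted p = 0.357) and -0.10 without vehicle replicate 2. Set against the summed heart muscle markers of its library, Csrp3 stood at 14.8, 15.8 and 14.6 CPM per 1000 marker CPM after dexmedetomidine, against 14.9, 15.8 and 14.7 after vehicle. The groups overlapped on this scale, on which the marker sum takes the place of library size.

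The Xin genes had fold changes of opposite sign. Xirp1 measured 872, 694 and 877 CPM in dexmedetomidine libraries, against 1396, 3526 and 694 CPM in vehicle libraries. Vehicle replicate 3 lay level with dexmedetomidine replicate 2, and vehicle replicate 2 stood 3.37-fold above the mean of the other vehicle libraries. The log2 fold change was -1.20 (SE 0.51, 95% interval -2.38 to -0.03), with an edgeR p of 0.0460 before adjustment and an adjusted p of 0.224. Without vehicle replicate 2 it was -0.36 (95% interval -0.94 to 0.22), and without vehicle replicate 3 it was -1.60 and passed (edgeR adjusted p = 0.0190, over all alternatives 0.0190 to 0.940).

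Xirp2 measured 603, 252 and 745 CPM in dexmedetomidine libraries, against 251, 188 and 189 CPM in vehicle libraries. Dexmedetomidine replicates 1 and 3 stood well above the rest, while replicate 2 lay just above vehicle replicate 1. The groups did not overlap, as for 15.6% of all genes in this direction. The log2 fold change was 1.35 (SE 0.35, 95% interval 0.55 to 2.15), with an edgeR p of 0.00466 before adjustment and an adjusted p of 0.111. Without dexmedetomidine replicate 2, the low one, the log2 fold change was 1.69 and passed (edgeR adjusted p = 0.0394), and in DESeq2 it passed with all libraries (adjusted p = 0.000919, over all alternatives 0.000919 to 0.687). Xirp2 has a deposited length of 11979 bases and a GC content of 42.2%, the lowest of the 9 genes. Among 1037 tested genes within 1 percentage point of that GC content the median log2 fold change was 0.38, and 95.9% of them lay below Xirp2. With the GC and length correction, Xirp2 was at 0.82 (SE 0.35, 95% interval 0.0097 to 1.62, edgeR adjusted p = 0.407).

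Rcan1, the calcineurin inhibitor gene, measured 479, 440 and 305 CPM in dexmedetomidine libraries, against 589, 481 and 298 CPM in vehicle libraries. Replicate 3 was the lowest in both groups and the groups overlapped throughout. For Rcan1 the log2 fold change was -0.16 (SE 0.26, 95% interval -0.75 to 0.43, edgeR adjusted p = 0.765). Its sign was not stable, with 0.063 without vehicle replicate 1, 0.012 without dexmedetomidine replicate 3 and 0.043 with the GC and length correction.

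Among the secreted matricellular genes, Ctgf measured 371, 416 and 416 CPM in dexmedetomidine libraries, against 641, 785 and 214 CPM in vehicle libraries. The dexmedetomidine libraries lay close together, between vehicle replicate 3 below and vehicle replicates 1 and 2 above. Means were 401 ± 26.2 CPM after dexmedetomidine and 546 ± 297 CPM after vehicle (SD, n = 3 each), with a log2 fold change of -0.45 (SE 0.39, edgeR adjusted p = 0.552). Without vehicle replicate 2 it was -0.09, and without vehicle replicate 3 it was -0.83 and passed (edgeR adjusted p = 0.0113, over all alternatives 0.0113 to 0.982).

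Cyr61 measured 255, 259 and 215 CPM in dexmedetomidine libraries, against 365, 1124 and 199 CPM in vehicle libraries. Vehicle replicate 2 stood 3.98-fold above the mean of the other vehicle libraries, the widest such gap of the 9 genes, and vehicle replicate 3 was the lowest of the 6. The log2 fold change was -1.21 (SE 0.55, 95% interval -2.50 to 0.08, edgeR adjusted p = 0.255). It was -0.22 (95% interval -0.72 to 0.29) without vehicle replicate 2, and -1.61 and past the threshold without vehicle replicate 3 (edgeR adjusted p = 0.0286, over all alternatives 0.0286 to 0.965). Fibroblast markers, led by Dcn, summed to 1159 to 1367 CPM after dexmedetomidine and 943 to 1050 CPM after vehicle. Their median log2 fold change was 0.40, and 0.12 with the GC and length correction. Endothelial markers summed to 1462 to 1664 CPM after dexmedetomidine and 1603 to 1700 CPM after vehicle, and the part of these cells in the Ctgf and Cyr61 values was not tested.

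**Figure D2:**
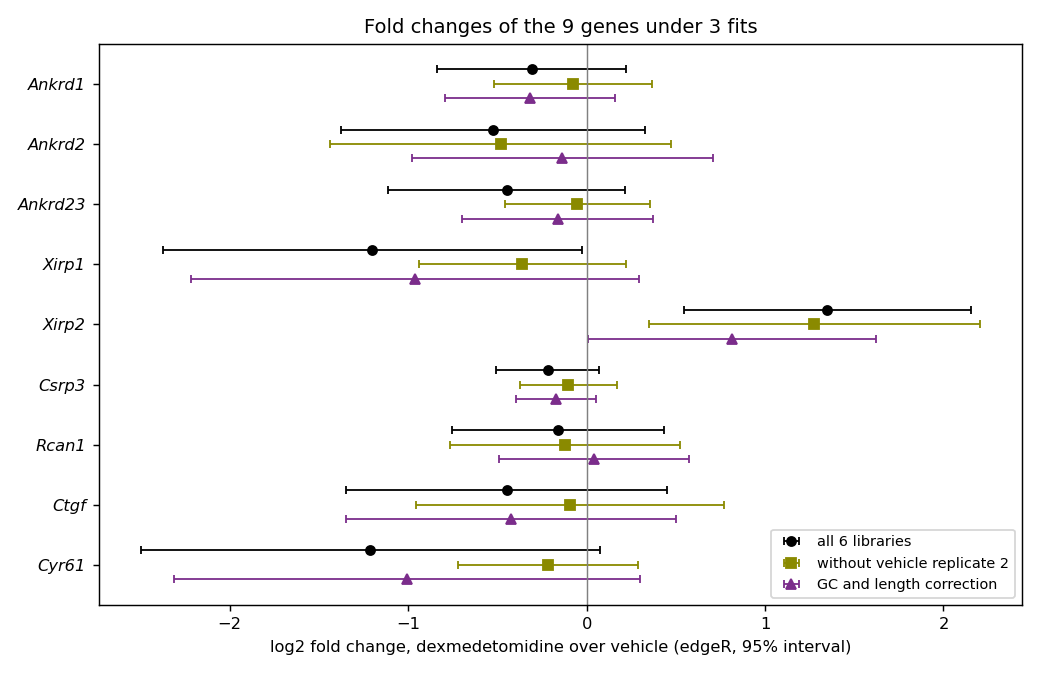
Log2 fold change of each gene, dexmedetomidine over vehicle, with its 95% interval from edgeR, in all 6 libraries, without vehicle replicate 2 and with the GC and length correction. Cyr61 is at -1.21 with all libraries and -0.22 without that replicate, Xirp1 at -1.20 and -0.36, and Xirp2 at 1.35 and 1.28.

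The spread within the groups was unequal. The coefficient of variation of Cyr61 was 10.2% in dexmedetomidine libraries and 87.6% in vehicle libraries, that of Xirp1 12.8% and 78.8%, and that of Ctgf 6.53% and 54.3%. Xirp2 went the other way, with 47.6% in dexmedetomidine libraries and 17.1% in vehicle libraries. A difference in spread between 3 and 3 libraries was not tested.

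Read by library, vehicle replicate 2 was the highest for 6 genes, vehicle replicate 1 for Ankrd2 and Rcan1, and dexmedetomidine replicate 3 for Xirp2. The deviation from each gene's own mean over the 6 libraries had a median of -0.08, -0.32 and -0.20 in dexmedetomidine replicates 1, 2 and 3, against 0.26, 0.57 and -0.49 in vehicle replicates 1, 2 and 3, on the log2 CPM scale. Vehicle replicates 1 and 2 each had 8 of the 9 genes above their own mean. Vehicle replicate 3 had all 9 below it and was the lowest library for 4 of them. Together the 9 genes summed to 5109, 4433 and 4705 CPM in dexmedetomidine libraries, against 6084, 9850 and 3719 CPM in vehicle libraries, so the vehicle sums lay on both sides of the dexmedetomidine sums.

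**Figure D3:**
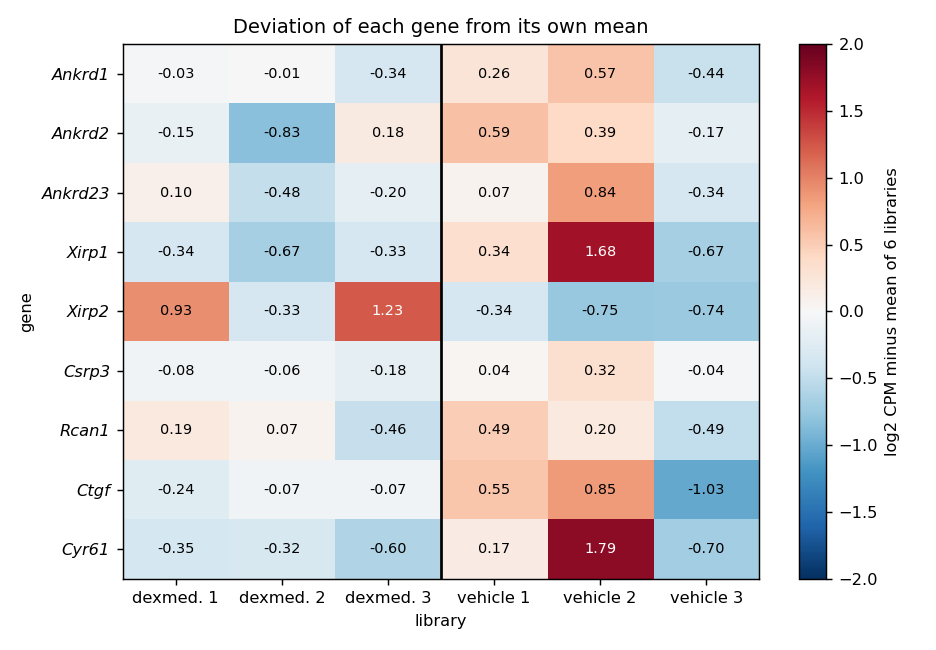
Log2 CPM of each gene (rows) minus its mean over the 6 libraries, by library (columns), dexmedetomidine left of the line and vehicle right of it. Vehicle replicate 2 is highest for Cyr61 (1.79) and Xirp1 (1.68), vehicle replicate 3 is below the mean for every gene, and Xirp2 is highest in dexmedetomidine replicate 3 (1.23).

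Levels between genes were compared per length, as TPM, a transcript's share per 1000000 after division by length, from the deposited gene lengths. TPM was not TMM-scaled and includes mitochondrially encoded genes, whose share of the reads assigned to genes was 34.0% ± 6.08 in dexmedetomidine libraries and 23.5% ± 1.62 in vehicle libraries (SD, n = 3 each), so TPM serves for the order within a group and not for differences between groups. In dexmedetomidine libraries the order from high to low was Csrp3 at 1684 ± 270 TPM, Ankrd1 at 1139 ± 252, Ankrd23 at 438 ± 147, Rcan1 at 310.3 ± 103, Xirp1 at 263 ± 58.6, Ctgf at 262 ± 17.2, Cyr61 at 226 ± 45.8, Xirp2 at 84.3 ± 41.2 and Ankrd2 at 2.13 ± 0.753 (SD, n = 3). Neighbours from Ankrd23 down to Cyr61 overlapped in their libraries, while Csrp3, Ankrd1, Xirp2 and Ankrd2 were each apart from their neighbours. In vehicle libraries Csrp3 at 2291 ± 200.3 TPM and Ankrd1 at 1624 ± 439 again led, and Xirp2 at 38.5 ± 6.13 and Ankrd2 at 3.57 ± 0.760 again came last. Between them Xirp1 was the third at 687 ± 511 and Rcan1 the seventh at 397 ± 110, and every neighbour from Ankrd1 to Rcan1 overlapped the next. Csrp3 was the 36th and Ankrd1 the 52nd most abundant of the tested genes per length, and Ankrd2 was the 9812th.

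**Figure D4:**
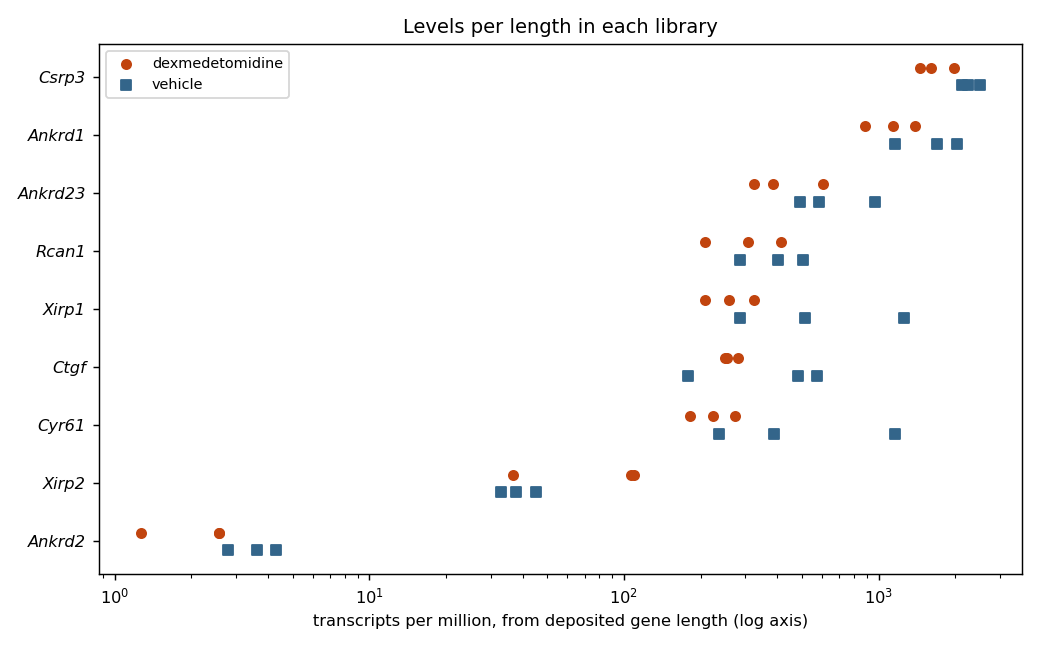
Level per length of each gene in TPM (log axis) in each library, ordered by the dexmedetomidine mean, with dexmedetomidine (circles) above vehicle (squares). Csrp3 and Ankrd1 lead in both groups, and Xirp2 and Ankrd2 lie lowest.

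Other genes of the load-sensing pathways were read from the same fit, and 0 of any list passed the adjusted threshold in either direction. From each list the 2 genes of smallest edgeR p are named, a choice that favours groups without overlap. Groups did not overlap for 27.6% of all tested genes. Of 19 tested YAP and TEAD targets besides the 9 genes, 11 were lower and 8 higher after dexmedetomidine. Their median log2 fold change was -0.08, against 0.00321 for all tested genes. For 3 in each direction the unadjusted edgeR p was under 0.05, against 9.03% of all genes lower and 12.5% higher. Without vehicle replicate 2 the balance turned, with 9 lower and 11 higher and a median of 0.02. Fjx1, a secreted inhibitor of dendrite growth, measured 4.94, 5.21 and 4.44 CPM after dexmedetomidine, against 8.26, 11.4 and 7.16 CPM after vehicle. The growth factor gene Tgfb2 measured 18.6, 24.3 and 18.6 CPM after dexmedetomidine, against 14.5, 10.8 and 13.8 CPM after vehicle. The groups did not overlap for either gene, and they lay in opposite directions (log2 fold changes -0.88 and 0.65, edgeR adjusted p = 0.107 and 0.109). With the GC and length correction Fjx1 was at -0.45 and Tgfb2 at 0.53. Of 4 other genes of the CCN family, to which Ctgf and Cyr61 belong, 3 could be tested and all had fold changes below 0. Ccn4 was at -0.34 (SE 0.41, edgeR adjusted p = 0.669) and Ccn5 at -0.14 (SE 0.35, adjusted p = 0.857). The groups overlapped for both, and both were sparse, with means of 1.08 and 2.07 CPM after dexmedetomidine, against 1.36 and 2.28 CPM after vehicle. Without vehicle replicate 2 Ccn4 was at -0.54 and Ccn5 at -0.39. The sign of Ccn5 turned with the correction for GC and length, to 0.13.

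Of 18 MRTF and SRF targets, 14 were lower and 4 higher (median -0.26, and -0.08 without vehicle replicate 2). The focal adhesion gene Zyx measured 82.8, 75.3 and 73.7 CPM after dexmedetomidine, against 107, 139 and 85.9 CPM after vehicle. Its log2 fold change was -0.52 (SE 0.17, edgeR adjusted p = 0.133). Zyx was the 1 gene of this list with an unadjusted edgeR p under 0.05, against 9.03% of all genes lower and 12.5% higher. It was at -0.32 without vehicle replicate 2 and at -0.26 with the GC and length correction. Srf itself was at -0.53 with overlapping groups (edgeR adjusted p = 0.282), and at -0.01 with the GC and length correction. Of 20 other tested load and stress genes 17 were lower and 3 higher (median -0.46, and -0.17 without vehicle replicate 2). Among them 4 lower and 1 higher had an unadjusted edgeR p under 0.05, against 9.03% and 12.5% of all genes. Myh7, the slow myosin heavy chain, measured 122, 146 and 102 CPM after dexmedetomidine, against 156, 208 and 226 CPM after vehicle (log2 fold change -0.67, and -0.63 without vehicle replicate 2, edgeR adjusted p = 0.109 with all libraries). The groups of Myh7 did not overlap, nor did those of Piezo1, a stretch-gated ion channel. Both were named for the smallest p of their list, which favours such groups. Piezo1 was at -0.47 (edgeR adjusted p = 0.122, and -0.24 with the GC and length correction).

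Of 16 calcineurin and NFAT pathway genes, 8 were lower and 8 higher (median 0.02, and -0.12 with the GC and length correction). Of these, 4 lower and 5 higher had an unadjusted edgeR p under 0.05, against 9.03% and 12.5% of all genes. For 3 lower and 3 higher genes of this list the groups did not overlap, against 12% and 15.6% of all genes. Ppp3ca, a catalytic subunit of calcineurin, the enzyme that Rcan1 inhibits, measured 65.2, 56.0 and 72.4 CPM after dexmedetomidine, against 26.7, 17.4 and 44.8 CPM after vehicle (log2 fold change 1.12, SE 0.30, edgeR adjusted p = 0.112). The muscle transcription factor gene Mef2a was at 0.92 (SE 0.23, edgeR adjusted p = 0.109). The groups did not overlap for either gene, and both were likewise named for their small p. With the GC and length correction Ppp3ca was at 0.93 and Mef2a at 0.49.

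Of 20 tested partners of titin, the Z-disc and the intercalated disc, 15 were lower and 5 higher. Their median was -0.15, against -0.14 without vehicle replicate 2 and -0.11 with the GC and length correction. Of the 20, 5 lower and 1 higher had an unadjusted edgeR p under 0.05, against 9.03% and 12.5% of all genes. The groups did not overlap for 10 of the 20, 8 lower and 2 higher, against 12% and 15.6% of all genes. Overlap was not counted with the correction. Tcap, which caps titin at the Z-disc and binds the LIM protein of Csrp3, was at -0.62 (SE 0.16, edgeR adjusted p = 0.109, groups not overlapping) and at -0.10 with the GC and length correction. Nebl, encoding the Z-disc protein nebulette, measured 232, 221 and 344 CPM after dexmedetomidine, against 97.4, 53.4 and 154 CPM after vehicle. Its log2 fold change of 1.39 (SE 0.36, edgeR adjusted p = 0.110, and 0.75 with the correction) was close in size to that of Xirp2, and its GC content of 40.1% is also low.

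**Figure D5:**
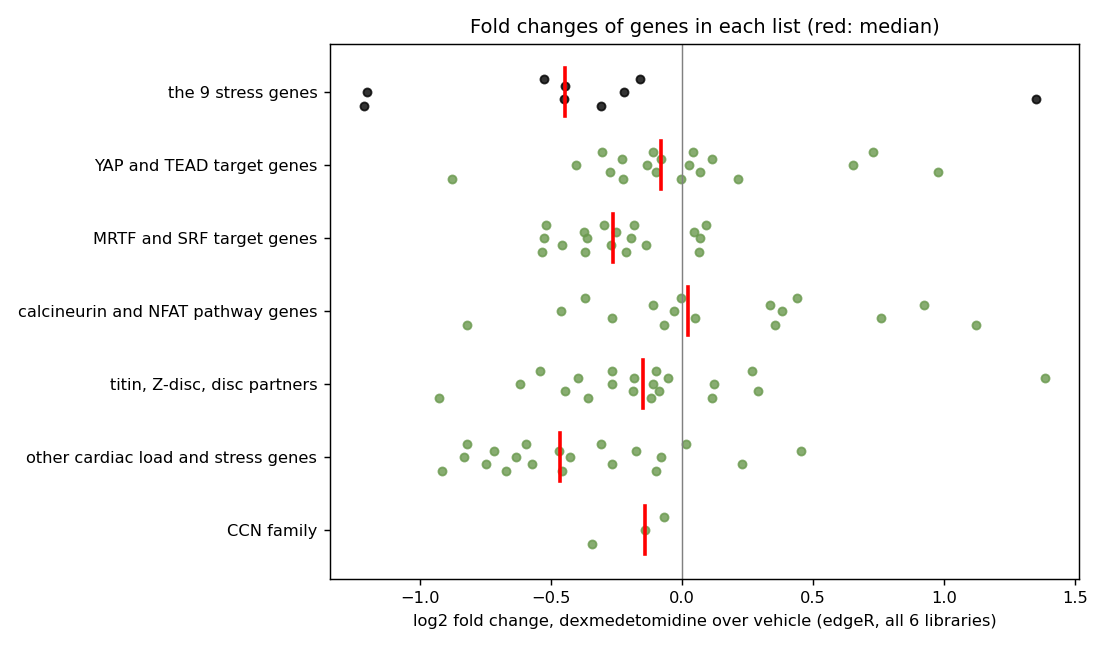
Log2 fold change (dexmedetomidine over vehicle, edgeR, all 6 libraries) of each tested gene, by list, with the list median in red. The 9 stress genes have a median of -0.45, with Xirp2 at 1.35 apart from the others.

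By likeness over the 6 libraries, Ankrd1 was closest to Csnk1e, Dhdds and Rpl19 among 9556 genes (Pearson r of log2 CPM 0.996, 0.994 and 0.994, Spearman rho 1 for each). Ctgf was closest to Tbc1d1, Panx1 and S100a11 (r 0.995, 0.993 and 0.992). These are the best of 9556 values over 6 libraries and serve only to describe the pattern. A high r does not mean a like size of variation. Csnk1e measured 52.2, 53.1 and 46.8 CPM after dexmedetomidine, against 56.8, 61.6 and 45.5 CPM after vehicle, a narrower range than that of Ankrd1. Panx1 measured 4.12, 4.80 and 4.24 CPM after dexmedetomidine, against 6.74, 8.52 and 2.63 CPM after vehicle, and its log2 fold change of -0.44 was close to that of Ctgf.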

How the data were processed

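RNA from apical heart tissue (1 µg per sample, poly-T selection, NEBNext Ultra kit, per the labels' protocols) was sequenced in 6 libraries. The authors deposited raw counts per gene with gene lengths in bases. Trim Galore, HTSeq and mouse build mm9 were used, per the submitters' processing notes; versions, aligner, annotation and strand setting were not given in these sources. Of 37620 genes, 32897 matched a symbol, and 5 summary rows stayed out, among them alignments at more than 1 place (28.0% to 39.5% of reads). In the reference annotation 5 of the 9 genes overlap another gene; 3 of those others are in the table, with 0 to 58 counts per library. Reads from the overlapping stretches cannot be told apart for the same-strand overlaps (Xirp1, Ankrd23), nor, if strand was not used, for the opposite-strand ones.

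Counts were tested with edgeR 4.0.16 (quasi-likelihood, robust, filterByExpr, TMM) in R 4.3.3 over 14738 genes, with Benjamini-Hochberg adjustment. Log2 fold changes are dexmedetomidine over vehicle, and SE is the fold change over the root of F. DESeq2 1.42.0 and limma 3.58.1 were alternatives. The correction for GC content and length (14329 genes, lowess span 0.3, longest GENCODE M21 transcript) used offsets. The fits were also run on simulated counts with known changes. Those counts held no trend with GC content and no outlying library, so they cannot show how the fits behave with either. The members, the lists and the alternatives were chosen with earlier results of these data known. All 9 members were named, with the 2 genes of smallest p of each further list and the 3 most alike Ankrd1 and Ctgf (mean of at least 5 CPM). No pair of libraries within a group agreed within sampling noise (chi-square per degree of freedom 30.1 to 161).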

Additional observations from a re-analysis of the deposited data

How the results depend on the processing

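None of the 9 genes passed at an adjusted p of 0.05 in edgeR with all libraries, and 2 had an unadjusted p under 0.05. The median log2 fold change of the 9 was -0.45, and from -0.68 to -0.09 over all alternatives. Over all genes, edgeR called 0, against 406 without a filter on low counts, 1272 in DESeq2 and 2107 in limma-voom with quality weights. With 1 library left out edgeR called 0 to 1251, the most without vehicle replicate 3, where 15048 genes were tested. Of the 9 genes, 1 passed in DESeq2 (Xirp2) and 0 to 3 with 1 library left out: Xirp1, Ctgf and Cyr61 without vehicle replicate 3, and Xirp2 without dexmedetomidine replicate 2. Genes of the 9 with an unadjusted p under 0.05 numbered 1 without the filter, in DESeq2 and with the GC and length correction. They numbered 0 without vehicle replicate 2 with that correction, and 1 to 7 with 1 library left out. The 7 came without vehicle replicate 3, a fit for which the share of all genes with such a p was not counted. Deviations of same-numbered libraries had r of -0.05, 0.04 and 0.15 for numbers 1, 2 and 3. These values cannot show whether the numbers pair the samples, so the replicate number was also entered as a block. With the replicate block edgeR called 636 genes, and 1 of the 9, Xirp2 (log2 fold change 1.22, adjusted p = 0.0360, over all alternatives 0.000919 to 0.687), which was also the 1 with an unadjusted p under 0.05. With the replicate block and the GC and length correction it called 74 genes and 0 of the 9, with 0 unadjusted. The sign changed for Rcan1, which ranged from -0.39 to 0.063 with 1 library left out (0.063 without vehicle replicate 1 and 0.012 without dexmedetomidine replicate 3) and was 0.043 with the GC and length correction, 0.078 with the replicate block and that correction and 0.039 without vehicle replicate 2 with that correction, and for Ankrd23, at 0.15 in the last of these. The median level of the 9 in dexmedetomidine libraries was 263 TPM, and 451 CPM without length. The cause of these moves was not tested. Ankrd2 had 31 to 129 counts per library, and its SE of 0.38 was close to that of the abundant Ctgf, 0.39.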

Other observations

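Within each library Xirp1 can be set against Xirp2 per length, a ratio chosen after its values were seen. It was 2.97, 5.65 and 2.41 in dexmedetomidine replicates 1, 2 and 3, against 11.4, 38.5 and 7.53 in vehicle replicates 1, 2 and 3, with no overlap, and was not tested. Xirp1 has a GC content of 57.0% and Xirp2 of 42.2%. Median log2 fold changes over all tested genes were 0.47 in the lowest of 5 GC bins, which holds Xirp2, and -0.30 in the highest, which holds Xirp1. The ratio of Ankrd1 to Csrp3 per length was 0.702, 0.707 and 0.607 after dexmedetomidine, against 0.797, 0.806 and 0.516 after vehicle, so the groups overlapped. They also overlapped for the ratios of Ankrd1 to Ankrd23 and of Ctgf to Cyr61. The share of all gene pairs without overlap was not computed. Set against summed heart muscle markers, the groups overlapped for 8 of the 9 genes and not for Xirp2. Xirp2 stood at 10.5, 4.65 and 13.7 CPM per 1000 marker CPM after dexmedetomidine, against 4.05, 2.66 and 3.19 after vehicle. The share of all genes without overlap was not computed on this scale, and in CPM it was 27.6%.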
